A study of Rattus norvegicus with 24 samples.

Results

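Complement C3, factor B and the genes that act with or upon them were followed as 8 targets (C3, Cfb, C2, C4b, C6, Cfi, Serping1 and C3ar1) of the 19963 in each file, chosen by target name. All 8 names equal a RefSeq rat symbol, as do 16665 of the 19963 target names. A match of names does not show for which species the probes were designed, or how well they bind rat RNA. The choice was made with differences between the treatments already known, so the treatment differences of these 8 are given as a description: no p-value of a member is printed for them, and counts past a threshold support nothing. The data came from diabetic skin wounds profiled by GeoMx, in which tagged RNA probes are released from small areas of a fixed section and counted. All rats were male SD rats, made diabetic by STZ at 5 weeks of age, given full-thickness wounds of 8 mm held open by splints, and sampled at day 7. The groups were CuNZ@Gel, whose name the labels do not spell out and which is read here as the nanozyme hydrogel of the series title, then Gel, and Sham. Each group had 2 numbered specimens, each specimen 2 regions and each region a Segment 2 and a Segment 1, which gives 24 areas. Whether each specimen was a separate animal is not in the labels, nor is the antibody behind a segment or the meaning of the region name "mac". The p-values therefore concern only these specimens, and they rest mostly on a spread pooled over all targets.

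Complement is a cascade of plasma and tissue proteins that marks surfaces for uptake and recruits leukocytes. Its pathways meet at C3, whose cleavage yields the chemotactic fragment C3a and the surface-bound fragment C3b. Factor B joins C3b to form the convertase of the alternative pathway, which cleaves further C3, while C2 and C4 form the convertase of the classical and lectin pathways. The liver makes most circulating complement, and macrophages, fibroblasts and fat cells can make components locally. C3 and factor B are acute phase genes in liver and in inflamed tissue, with promoters known in other mammals to respond to factors of the C/EBP and NF-kB families.

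The RefSeq rat windows (assembly GRCr8) from 250 bases before to 50 bases after the annotated start were available for 5 of the 8 members (C3, C6, C4b, Cfi and C3ar1). They are shown for C3 and C6, the members with the clearest levels, because both contain 1 match to the C/EBP pattern TTNNGNAAT, which is in capitals. The C3 window lies at chr9:2201290-2201589 on the minus strand, and the C6 window at chr2:55573383-55573682 on the plus strand.
C3: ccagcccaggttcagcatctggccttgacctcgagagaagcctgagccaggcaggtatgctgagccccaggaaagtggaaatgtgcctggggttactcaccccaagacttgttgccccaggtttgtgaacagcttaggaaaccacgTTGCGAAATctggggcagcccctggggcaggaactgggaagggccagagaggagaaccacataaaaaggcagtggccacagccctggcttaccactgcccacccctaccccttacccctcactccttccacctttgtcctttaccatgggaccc
C6: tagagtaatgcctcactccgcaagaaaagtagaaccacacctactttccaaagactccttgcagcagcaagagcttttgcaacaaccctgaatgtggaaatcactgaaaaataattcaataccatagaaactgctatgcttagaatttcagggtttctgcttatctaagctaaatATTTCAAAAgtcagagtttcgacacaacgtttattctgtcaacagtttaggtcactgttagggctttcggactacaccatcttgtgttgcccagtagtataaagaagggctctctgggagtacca
The C3 match begins at -104 from the start, on the strand of the gene. The C6 match begins at -75, on the opposite strand. This pattern, searched on both strands, was found in 12.3% of 33469 rat windows, and in none of the windows of C4b, Cfi and C3ar1. The NF-kB pattern, GGG and CC with any 5 bases between them, was found in 47.3% of windows. It was found in the windows of C3, C4b and C3ar1, with matches in C3 that begin at -93 and -92, which overlap each other, and at -69; none of these overlaps the C/EBP match. The interferon patterns TTCNNNGAA (8.87% of windows) and GAAA repeated after any 2 bases (3.92%) were found in none of the 5. A match is only a match of letters.

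Values are the deposited scaled signal. The values of an area are whole multiples of the value of 1 count, and the areas held 86386 to 1476512 counts (median 340374). No target was listed at 0, so a value of 1 count may stand for 1 count or for none. Segment 2 was the shallower in 11 of 12 regions, with a median of 170042 counts against 533137 in Segment 1. A background limit was set in each area from 1116 targets for odorant and pheromone receptors (their 99th percentile), genes best known from sensory neurons. It lay between 11.4 and 21.6 (median 14.3). C3 exceeded its area's limit in 19 of 24 areas, C6 in 19 and Cfb in 7. C2, C4b, Cfi, Serping1 and C3ar1 exceeded it in 0 of 24 areas. Without probe sequences, a low value can mean little RNA or a poor probe, and in an area of mixed tissue fewer cells of a type and less RNA per cell cannot be told apart.

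C3, the central component, was higher in every area of both gels than in every Sham area. It ranged from 64.2 to 169 in the 8 CuNZ@Gel areas (median 113), from 73.6 to 402 in the 8 Gel areas (median 162) and from 8.18 to 37.1 in the 8 Sham areas (median 13.1). The specimen means were 138 and 94.2 in CuNZ@Gel, 143 and 202 in Gel, and 11.4 and 21.4 in Sham. The gel groups overlapped each other and neither overlapped Sham, also within each segment. Such a separation of all 16 gel areas above all 8 Sham areas was found for 7 of 19728 targets tested (0.0355%), a share given as background from which nothing is read, since C3 was chosen on these contrasts. The mean of log2(value + 1) was higher by 2.85 in CuNZ@Gel than in Sham and by 3.27 in Gel than in Sham (SE 0.20 for each), while the SD between specimens of one group was 0.37. The Sham values rest on 3 to 106 counts per area. The Sham area with 3 counts had a value of 9.20, with an exact Poisson 95% interval of 1.90 to 26.9 for counting error alone, which lies below the lowest gel area. CuNZ@Gel minus Gel was -0.42. Without region 2 of Gel specimen 2 that difference was 0.05.

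**Figure D1:**
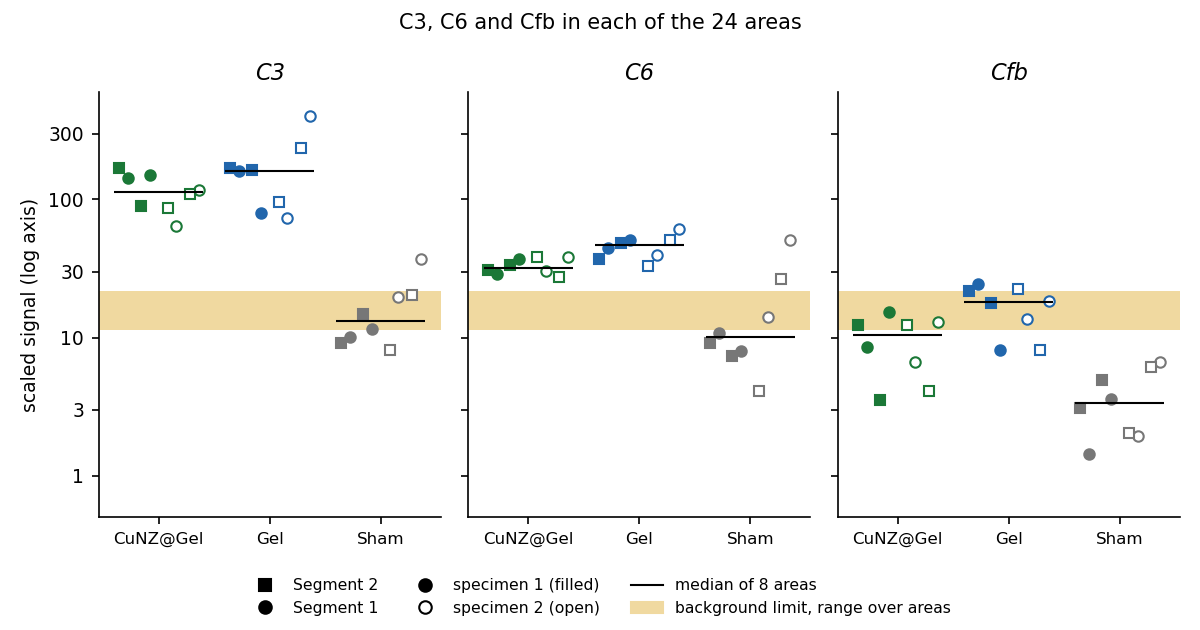
Scaled signal of C3, C6 and Cfb (log axis) in each of the 24 areas, by treatment. Squares are Segment 2 and circles Segment 1, filled symbols are specimen 1 and open symbols specimen 2, lines are medians of 8 areas, and the band spans the background limits of the areas (11.4 to 21.6). All gel areas lie above all Sham areas for C3; for C6 only the highest Sham area reaches the gel range; Cfb runs from below the band to just above it, with the highest values in Gel.

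The spread of C3 among Gel areas lay mostly in one region. In region 2 of Gel specimen 2 C3 stood at 237 in Segment 2 and 402 in Segment 1, against 96.1 and 73.6 in region 1 of the same specimen. The 2 regions differed by 1.86 on the log2 scale, the largest of 6 such differences (median size 0.55). In the same region the summed signal of 5 adipocyte markers, 1 of them above background, was 574, against 232 in region 1. That of 8 fibroblast markers was 11112 against 7241. Sums of contractile (288 against 174), T cell, erythroid, endothelial, mast cell and B cell markers were higher there too. Those of macrophage (634 against 734), neutrophil and keratinocyte markers were lower. Their part in the result was not tested. Without that region C3 was higher by 2.80 in Gel than in Sham.

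Factor B (Cfb), the protease of the alternative pathway convertase, was low, and was detected chiefly in Gel. It ranged from 3.50 to 15.3 in CuNZ@Gel areas (median 10.4), from 8.18 to 24.5 in Gel areas (median 18.1) and from 1.44 to 6.66 in Sham areas (median 3.34). It exceeded the background limit in 1 of 8 CuNZ@Gel areas, 6 of 8 Gel areas and 0 of 8 Sham areas. All Gel areas lay above all Sham areas, as for 19 of 19728 targets (0.0963%), whereas the CuNZ@Gel areas overlapped both other groups, although 29 targets (0.147%) were above Sham in every CuNZ@Gel area. The log2 difference from Sham was 1.13 in CuNZ@Gel and 1.94 in Gel (SE 0.28 for each), and CuNZ@Gel minus Gel was -0.81. The Sham areas held 1 to 19 counts of Cfb, so the Gel difference sets mostly measured levels against levels at background, and in CuNZ@Gel both sides lay mostly at background. The rat genes C2 and Cfb are neighbours on chromosome 20.

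C2, which encodes the protease of the classical convertase, and C4b, a gene for its partner C4, stayed at background. C2 ranged from 1.53 to 4.91 in CuNZ@Gel, from 0.61 to 5.45 in Gel and from 1.20 to 4.09 in Sham. C4b ranged from 1.36 to 6.13 in CuNZ@Gel, from 2.04 to 5.45 in Gel and from 1.44 to 12.3 in Sham. The groups overlapped for both genes, and their log2 differences from Sham lay between -0.21 and 0.20. C4b has a close copy, C4a, and how the probes share their RNA is not known here. C4a too exceeded the limit in 0 areas.

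C6, a component of the membrane attack complex that assembles after C5 is cleaved, was above background in every gel area. It ranged from 27.3 to 38.3 in CuNZ@Gel areas (median 32.0), from 32.7 to 61.3 in Gel areas (median 46.5) and from 4.09 to 50.5 in Sham areas (median 10.01). The specimen means differed little within the gels, at 33.0 ± 0.73 in CuNZ@Gel and 45.7 ± 0.63 in Gel, but stood at 16.3 ± 10.6 in Sham (SD, n = 2 each). The Sham spread lay mostly in region 2 of specimen 2, where C6 was 26.6 in Segment 2 and 50.5 in Segment 1, against 4.09 and 14.2 in region 1. The Segment 1 area of that region overlapped the gels, and 7 of 8 Sham areas lay below every gel area. The log2 difference from Sham was 1.34 in CuNZ@Gel and 1.78 in Gel (SE 0.22 for each), and 1.87 and 2.31 without that Sham region. In that region C3 was also at its highest in Sham (20.4 and 37.1), and the summed fibroblast markers stood at 26176 against 12056 in region 1. The contractile (872 against 590), macrophage and B cell marker sums were higher there too, and the other marker sums were lower (erythroid 763 against 1115). Their part in the result was not tested.

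The regulators and the receptor stayed at background. Cfi encodes factor I, which cleaves the protein fragments C3b and C4b, Serping1 the C1 inhibitor, and C3ar1 the receptor for C3a. Cfi ranged from 0.94 to 6.81 in CuNZ@Gel, from 1.36 to 7.19 in Gel and from 2.04 to 4.09 in Sham. Serping1 ranged from 1.75 to 7.55 in CuNZ@Gel, from 2.04 to 7.36 in Gel and from 2.04 to 12.3 in Sham. C3ar1 ranged from 1.89 to 5.45 in CuNZ@Gel, from 2.54 to 6.81 in Gel and from 0.72 to 5.05 in Sham. The treatments overlapped for all 3, and their log2 differences from Sham ran from -0.22 to 0.49. With 1 to 21 counts per area, the overlap does not show that these 5 low members were alike between treatments. The smallest difference that could have been detected was not worked out.

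**Figure D2:**
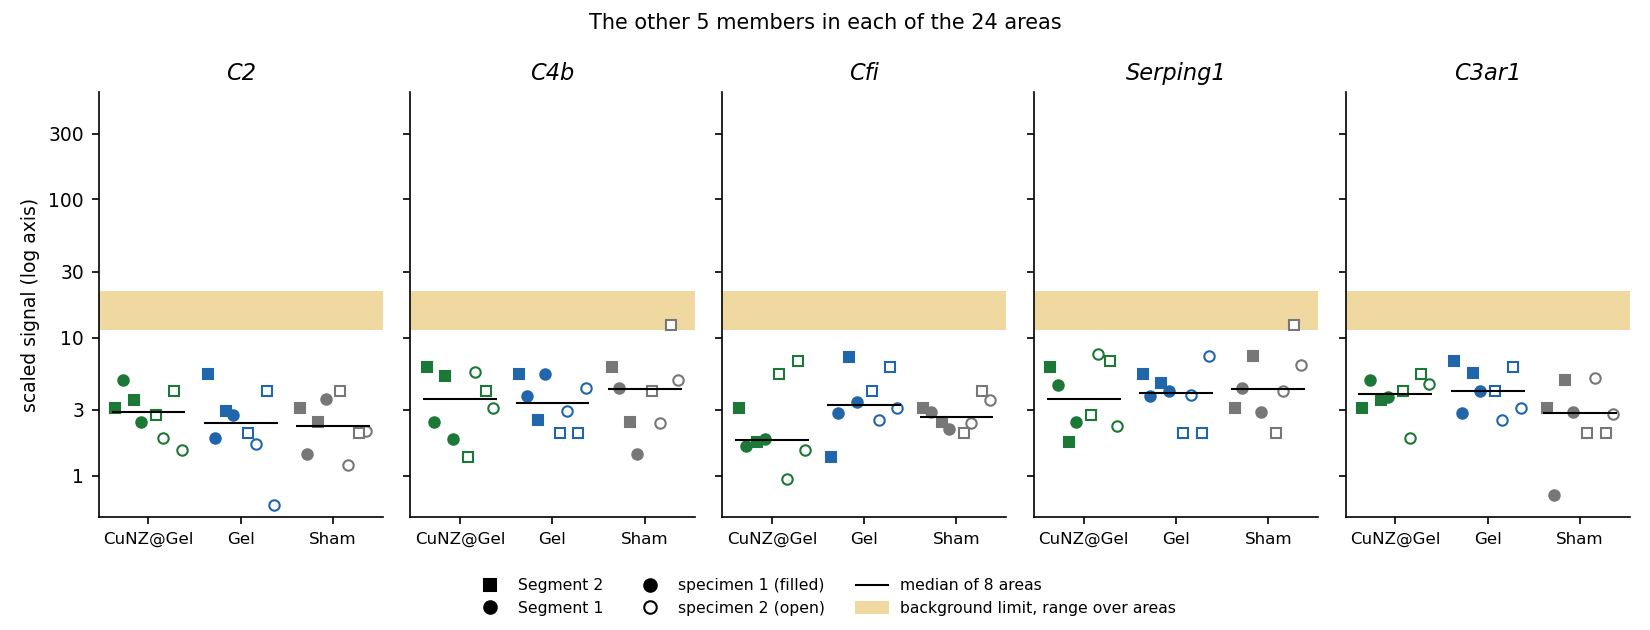
Scaled signal of C2, C4b, Cfi, Serping1 and C3ar1 (log axis) in each of the 24 areas, with symbols, lines and band as for C3, C6 and Cfb. The highest value, 12.3 for C4b and Serping1 in 1 Sham area, is below that area's own limit of 14.3, and the treatments overlap for every gene.

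Across the 8 members, 3 (C3, C6 and Cfb) passed a limma adjusted p under 0.05 as higher in CuNZ@Gel than in Sham, where 0.324% of 19728 targets did so, and the same 3 in Gel against Sham, where 0.618% did. Among the 5554 targets above background in at least 4 areas these shares were 0.864% and 1.66%. Nothing is read from these counts, because the members were chosen on those contrasts. Between CuNZ@Gel and Gel 0 of 8 passed in limma (0.943% of targets did in either direction), 3 had an unadjusted p under 0.05, and edgeR and DESeq2 called 0. The median log2 difference over the 8 members was 0.29 for CuNZ@Gel minus Sham and 0.37 for Gel minus Sham, beside 0.04 and 0.06 over all targets tested. Both gel comparisons share the Sham areas. limma shrank the spread strongly: it used an SD of 0.20 for C3 and 0.22 for C6, against their own 0.37 and 0.37, and 0.28 for Cfb against its own 0.12. C3 was past the threshold under all 18 alternatives in both comparisons with Sham, which refit the values the choice used. For CuNZ@Gel against Sham, C6 fell short in 4 alternatives and Cfb in 5, and without Sham specimen 1 only C3 of the 8 members passed.

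**Figure D3:**
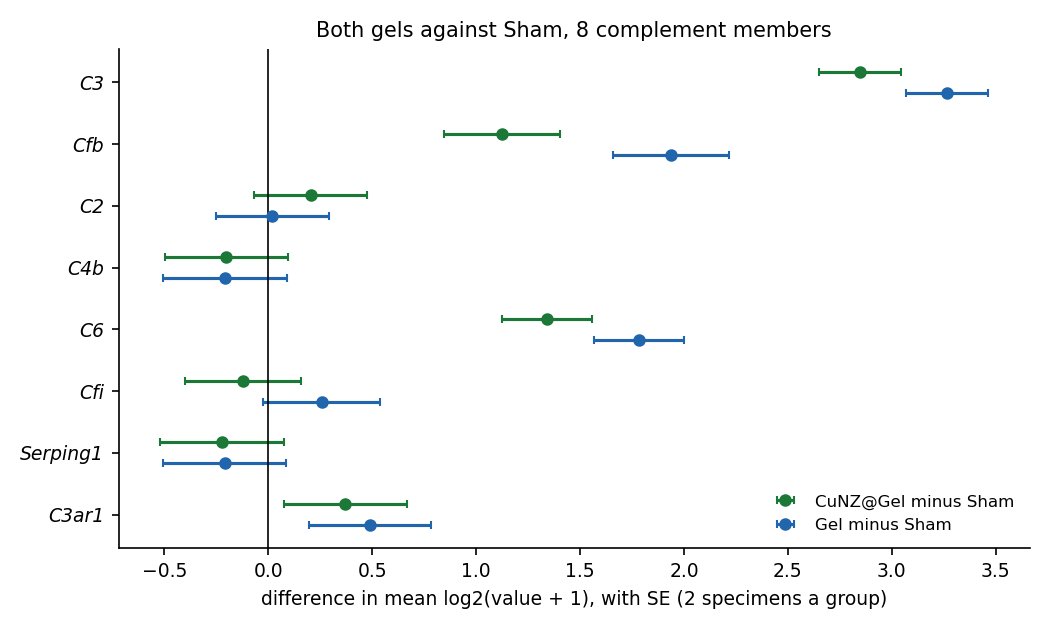
Difference in mean log2(value + 1) from Sham for the 8 members, CuNZ@Gel in green above Gel in blue, with the SE of the limma fit (2 specimens a group). C3 (2.85 and 3.27), C6 (1.34 and 1.78) and Cfb (1.13 and 1.94) lie to the right of 0; the other 5 lie between -0.22 and 0.49.

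The segments were compared within specimens. The members were chosen with earlier results of these data known, so the p-values of this comparison are not taken as independent tests. In limma 0 of 8 members differed between Segment 2 and Segment 1 after adjustment, while 2.53% of all targets did; 3 members had an unadjusted p under 0.05, and edgeR called 0. C3 differed by -0.10 on the log2 scale (95% interval -0.34 to 0.13, adjusted p = 0.703), and was higher in Segment 2 in 6 of 12 regions. Cfb differed by -0.04 (-0.47 to 0.38, adjusted p = 0.948). C6 was lower in Segment 2 in 10 of 12 regions, by 0.32 in the mean, which did not pass (interval -0.61 to -0.04, adjusted p = 0.238). Most targets above background were lower in Segment 2 too. Over the 5554 above background in at least 4 areas the median difference was -0.20, and 633 were higher. In limma 7.44% of them passed as lower and 0.018% as higher. C2 and Cfi, both at background, were higher by 0.48 and 0.47 with adjusted p of 0.241 and 0.273. These intervals do not show that the segments are alike. With counts thinned to the shallowest area, the differences of C3, Cfb and C6 became 0.26, 0.39 and 0.0069. The treatment by segment interaction passed for 0 of 8 members in limma (0.0507% of targets passed). 0 members had an unadjusted p under 0.05 there, edgeR called 0, and the smallest adjusted p was 0.879, for C3.

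**Figure D4:**
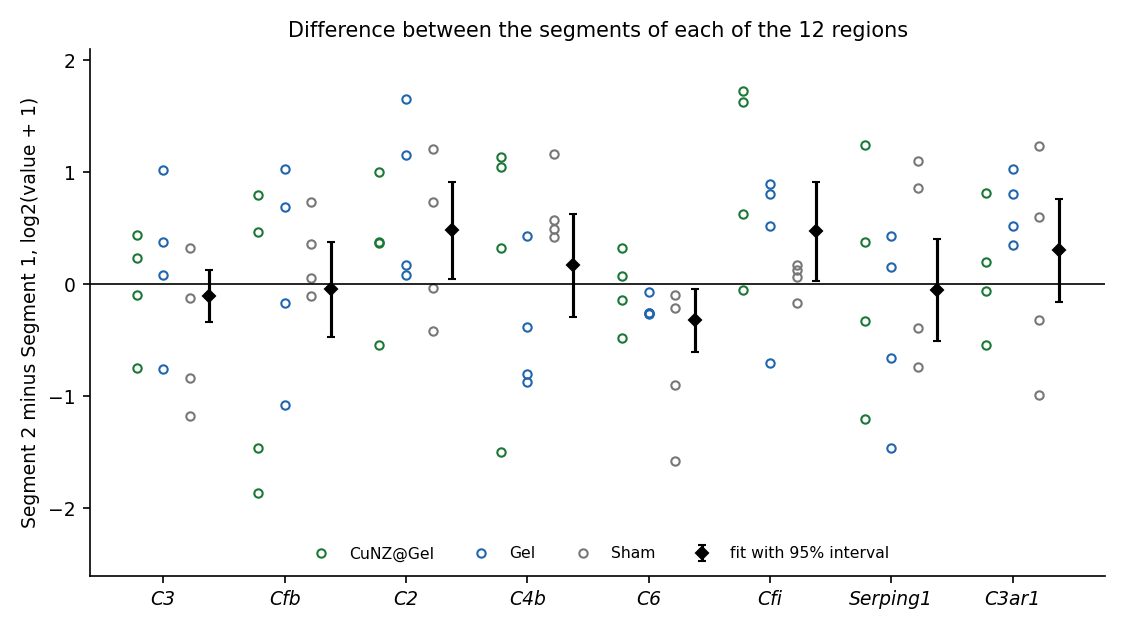
Segment 2 minus Segment 1 in log2(value + 1) for each member, 1 open circle per region (4 regions a treatment), with the limma estimate and 95% interval over all specimens as a black diamond. Circles lie on both sides of 0 for every member, and for C6 most lie below 0.

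The differences from Sham were also taken within each segment, as a description, since the members were chosen on these contrasts. C3 differed from Sham by 3.05 in CuNZ@Gel and 3.58 in Gel in Segment 2, and by 2.64 and 2.95 in Segment 1, where the SE was 0.61 and the Sham specimens stood at 10.8 and 28.4. C6 differed by 1.66 in CuNZ@Gel and 2.03 in Gel in Segment 2, and by 1.02 and 1.54 in Segment 1. Cfb differed by 0.74 in CuNZ@Gel and 1.87 in Gel in Segment 2, and by 1.51 and 2.01 in Segment 1. In Segment 1 alone neither C3 nor C6 passed in limma in either gel, and in Segment 2 alone Cfb did not pass in CuNZ@Gel. The interaction test above is the test of whether these differ between segments.

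Pearson's r of log2 values over the 24 areas, which share specimens, depth and scaling, was 0.87 for C3 and C6, 0.79 for C3 and Cfb, and 0.74 for Cfb and C6. These values include the treatment differences on which the genes were chosen. With the mean of each treatment and segment taken out, r was 0.61, 0.45 and 0.41. The 25 pairs that include a member at background had r between -0.36 and 0.52 in that form (median 0.07), so 0.45 and 0.41 lie within their range. In that form C6 ranked 42 and Cfb 180 among 5553 targets by likeness to C3, and C3 ranked 142 and C6 199 by likeness to Cfb. With those means taken out, the targets most like C3 were C1s2 (0.84), a C1s protease gene of the classical pathway, then Igf1 (0.83), Klf4 (0.83), Mfap4 (0.80), Lamb2, Cpq, Tmeff2 and Nbl1 (0.77). The most like Cfb were Mcoln1 (0.78), Ap1s2 (0.77), Cenpb, Rnf187, Sys1, C1qb, Prcp and Mogs (0.63). C6, added to that rule after its values were seen, was most like C1qc (0.87). These are descriptions. C6 stood at 26.6 and 50.5 in region 2 of Sham specimen 2, against 4.09 to 14.2 in the other Sham areas. C3 was also at its highest in Sham there (20.4 and 37.1). How far the r values of C6, with C3, Cfb or C1qc, rest on that region was not tested.

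The rest of the pathway was read on 51 other complement genes, of which 8 were above background in at least 4 areas. This list was drawn up with earlier results of these data known, so its p-values are not independent tests. Against Sham, 2 were higher and 2 lower in CuNZ@Gel, and 2 higher and 2 lower in Gel, beside 0.324% and 0.988% of all targets higher and lower in CuNZ@Gel and 0.618% and 1.8% in Gel. The median log2 difference over the 51 was 0.08 in CuNZ@Gel and 0.00 in Gel. Clu, which encodes clusterin, an inhibitor of the membrane attack complex, was higher in both gels than in Sham, where it lay at background. Clu exceeded the limit in 3 of 8 CuNZ@Gel areas, 5 of 8 Gel areas and 0 of 8 Sham areas. It ranged from 6.81 to 17.9 in CuNZ@Gel (median 12.3), from 6.13 to 47.7 in Gel (median 22.0) and from 2.04 to 11.2 in Sham (median 6.25), with limma log2 changes of 0.95 (adjusted p = 0.0344) and 1.71 (adjusted p = 2.42e-07). The CuNZ@Gel call of Clu was lost in 10 of 18 alternatives, among them those without CuNZ@Gel specimen 1 (0.78), CuNZ@Gel specimen 2 (1.12) or Sham specimen 1 (0.84). C5ar1, the receptor for C5a, fell in both gels: its median was 68.6 in CuNZ@Gel, 69.2 in Gel and 131 in Sham, with log2 changes of -0.99 (adjusted p = 0.000295) and -0.82 (adjusted p = 0.00266) in limma. These calls were lost in 5 and 6 of 18 alternatives: the CuNZ@Gel call without CuNZ@Gel specimen 2 (-0.85) or Sham specimen 1 (-0.77), and the Gel call without Gel specimen 1 (-0.53) or Sham specimen 1 (-0.61), among others.

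Among the recognition genes, C1qb, a chain of the C1q molecule, had a median of 3.68 in CuNZ@Gel, 123 in Gel and 48.3 in Sham; it was lower in CuNZ@Gel than in Sham by 3.28 on the log2 scale (limma adjusted p = 4.28e-23) and higher in Gel than in Sham by 1.46 (adjusted p = 2.68e-07). It was above background in 0 of 8 CuNZ@Gel areas, so its differences from that group are differences from a level at background. C1qa and C1qc did not pass, with log2 differences from Sham of 0.14 and 0.65 in CuNZ@Gel and 0.26 and 0.77 in Gel. C1s2 did not pass either (0.56 in CuNZ@Gel, 0.53 in Gel). Masp1, a protease of the lectin pathway above background in 3 areas, was lower in Gel than in Sham by 1.21 (adjusted p = 0.0054), a call lost without Sham specimen 2 (-0.64). Fcnb, a ficolin gene above background in 2 areas, was higher in CuNZ@Gel than in Sham by 1.05 (adjusted p = 0.0439), a call lost without any one of the 4 specimens compared. Of the partners of C3 and factor B, Cfd (factor D), Cfp (properdin) and Cd55 exceeded the limit in 0 areas, as did all 8 membrane regulators on the list. Of the 5 terminal genes none passed, and C7 exceeded the limit in 3 areas. Between CuNZ@Gel and Gel, C1qb alone of the 51 passed (lower by 4.74, adjusted p = 1.18e-34), with 0.943% of all targets called. Of the 5554 targets above background in at least 4 areas, 7.44% passed in limma as lower in Segment 2 and 0.018% as higher. Between the segments 2 of 51 passed (2.53% of all targets): Cd93 was lower in Segment 2 by 0.87 (adjusted p = 0.000946), and Cfhr2, above the limit in 0 areas, was higher by 0.76 (adjusted p = 0.044), a call lost when 5 of the 6 specimens were left out in turn.

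**Figure D5:**
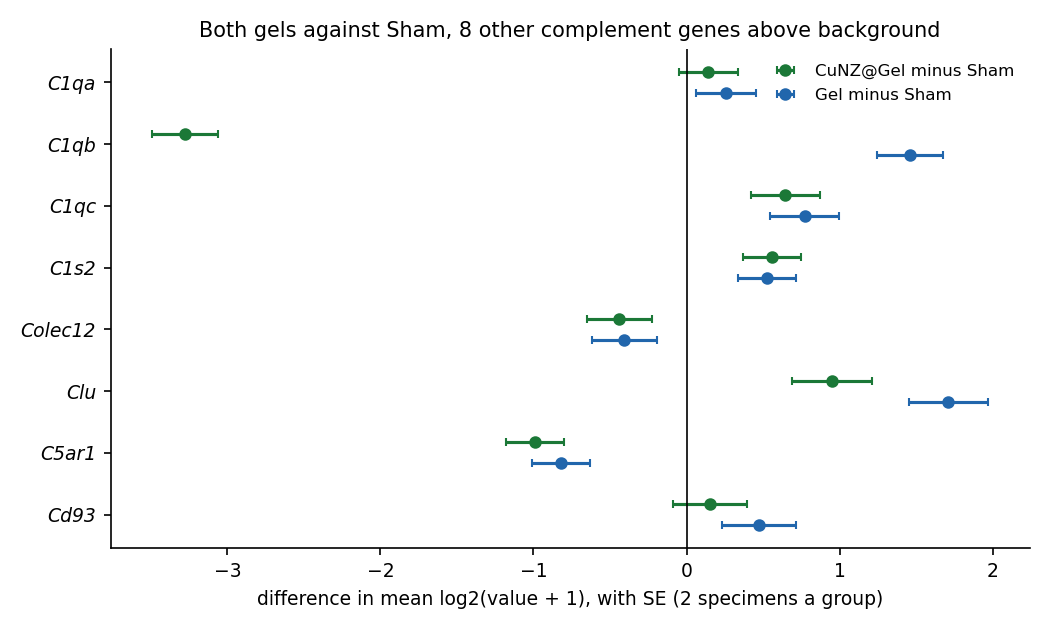
Difference in mean log2(value + 1) from Sham for the 8 other complement genes above background in at least 4 areas, CuNZ@Gel in green above Gel in blue, with the SE of the limma fit (2 specimens a group). Clu is to the right of 0 and C5ar1 to the left in both gels, and C1qb lies on opposite sides.

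Acute phase genes and the cytokines and factors known to induce C3 and factor B were read on a list of 25. It too was drawn up with earlier results of these data known, so its p-values are not independent tests. Of these, 11 above background, 1 was higher and 1 lower in CuNZ@Gel than in Sham, and 1 higher and 1 lower in Gel than in Sham, beside the shares of all targets given for the complement list (0.324% and 0.988% in CuNZ@Gel, 0.618% and 1.8% in Gel). Nfkbia, an inhibitor of NF-kB that NF-kB itself induces, was higher in CuNZ@Gel by 0.75 (limma adjusted p = 0.0431), at a median of 30.7 in CuNZ@Gel and 17.6 in Sham. Il1rn, the interleukin-1 receptor antagonist, was higher in Gel than in Sham by 0.72 (adjusted p = 0.0483) and lower in CuNZ@Gel than in Gel by 1.01 (adjusted p = 0.00163). Ptx3, a long pentraxin that binds C1q, was lower in CuNZ@Gel by 0.73 (adjusted p = 0.0381) and in Gel by 0.89 (adjusted p = 0.00186), at medians of 33.2 in CuNZ@Gel, 35.2 in Gel and 53.4 in Sham. Cebpb and Cebpd, the C/EBP genes, did not pass, with medians of 31.7 and 26.2 in CuNZ@Gel, 28.3 and 29.7 in Gel, and 21.3 and 23.0 in Sham. Saa3, Lcn2, Hp and Il1b exceeded the limit in 0 areas. Between the segments, 2 of the 25 fell in Segment 2 (2.53% of all targets passed in either direction), Nfkb2 by 0.40 (adjusted p = 0.0363) and Socs3 by 0.30 (adjusted p = 0.0302), calls lost when 4 of the 6 specimens were left out in turn for each gene. The median segment difference was -0.28 over the 11 above background, beside -0.20 over the 5554 targets above background in at least 4 areas. Of those 5554, 7.44% passed in limma as lower in Segment 2 and 0.018% as higher. The calls of Il1rn in Gel, and of Nfkbia and Ptx3 in CuNZ@Gel, were lost in 12, 9 and 11 of 18 alternatives. Leaving out 1 of the specimens compared lost the CuNZ@Gel call of Ptx3 (without any one of the 4), the Gel call of Il1rn (without Gel specimen 1 or either Sham specimen), the Gel call of Ptx3 (without Gel specimen 2 or Sham specimen 1), the CuNZ@Gel call of Nfkbia (without CuNZ@Gel specimen 2 or either Sham specimen), and the Il1rn difference between CuNZ@Gel and Gel (-0.53 without Gel specimen 1, and also without either CuNZ@Gel specimen).

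Markers of other cells were summed per area beside C3, C6 and Cfb. The summed signal of 8 fibroblast markers, 6 of them above background, ranged from 7267 to 12519 in CuNZ@Gel, from 1938 to 11396 in Gel and from 10627 to 32294 in Sham. That of 6 contractile markers (3 above background) ranged from 343 to 706 in CuNZ@Gel, from 38.9 to 359 in Gel and from 589 to 1099 in Sham, and that of 4 erythroid markers (2 above background) from 17.5 to 204 in CuNZ@Gel, from 20.4 to 87.9 in Gel and from 595 to 1806 in Sham. The 5 adipocyte markers (1 above background) summed to 70.1 to 239 in CuNZ@Gel, 55.8 to 757 in Gel and 49.1 to 117 in Sham. The 9 macrophage markers (4 above background) overlapped, at 491 to 760 in CuNZ@Gel, 464 to 818 in Gel and 452 to 970 in Sham. None of the keratinocyte, endothelial, mast cell or B cell markers was above background in 4 areas, although the tissue is labelled as skin. Tested singly in limma against Sham, 2 of 4 erythroid markers and 1 of 8 fibroblast markers were lower in each gel. So was 1 of 5 T cell markers, and 1 of 6 contractile markers was lower in Gel. In that comparison 2 of the 6 contractile markers had an unadjusted p under 0.05 in limma, and edgeR called 3. Of 9 macrophage markers 1 was higher and 1 lower in CuNZ@Gel. Of all targets, 0.324% were higher and 0.988% lower in CuNZ@Gel, and 0.618% higher and 1.8% lower in Gel. In CuNZ@Gel against Sham, limma called 0 of 6 contractile markers, with 1 at an unadjusted p under 0.05 and 1 called by edgeR. It called 0 of 5 adipocyte markers in either gel, with 0 in CuNZ@Gel and 1 in Gel at an unadjusted p under 0.05, and edgeR called 0 and 1. The part of these markers in the complement results was not tested.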

How the data were processed

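Each deposited file gives 1 scaled signal value per target for 1 area (19963 targets, 1 a negative probe). How the authors scaled the signal is not given in the sources used here. Its upper quartile was 12.1 to 12.3 in every area. At least 99.98% of values in each area were whole multiples of its lowest value within 0.01 of a count, so whole counts were recovered. On them edgeR 4.0.16 called 181, 368 and 160 targets for CuNZ@Gel against Sham, Gel against Sham and CuNZ@Gel against Gel.

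Values were analysed as log2(value + 1), so a fold change understates that of low targets. A specimen's value was the mean of its 4 areas. The 19728 targets that exceeded the negative probe in 4 or more areas entered limma 3.58.1 (R 4.3.3, trend and robust, 3 groups in 1 fit), with Benjamini-Hochberg adjustment over all of them and a threshold of 0.05. Segments were compared with the specimen as a block. Background was the 99th percentile of 1116 receptor targets per area, exceeded in at least 4 areas by 5554 targets. Intervals on counts are exact Poisson and cover counting error only. DESeq2 1.42.0 was an alternative. The fits were tried on simulated data with less spread between specimens and regions than C3 and C6 had. That trial therefore does not tell how the fits perform for these genes.

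The members and the gene lists were chosen with earlier results of these data known. Named genes were the members, up to 4 genes per list with the smallest p plus every list gene past the threshold, and the 8 targets most like C3 and Cfb; not all are reported here. Promoter windows are RefSeq's. Probe and protein sequences were not used here.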

Additional observations from a re-analysis of the deposited data

How the results depend on the processing

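The limits are the 2 specimens per group, a spread that limma pooled over targets, and low counts: 5 of the 8 members were at background in all areas, and Segment 2 was shallow. The members were chosen on the treatment contrasts, so refits of the same values give no support. In the comparisons with Sham, C3 kept its direction and its side of the threshold in 18 of 18 alternatives, with log2 differences of 2.50 to 3.20 in CuNZ@Gel and 2.80 to 3.62 in Gel. Cfb ranged from 0.70 to 2.28 in CuNZ@Gel, with 5 alternatives short of the threshold, and from 1.30 to 2.62 in Gel, with 0. C6 ranged from 0.74 to 1.87 in CuNZ@Gel, with 4 short, and from 1.21 to 2.31 in Gel, with 2 short (means of linear values and DESeq2). Below, counts are targets past an adjusted p of 0.05. They compare with 259 of all targets, 3 of the members, 4 of the 51 other complement genes and 2 of the 25 acute phase and inducing genes for CuNZ@Gel against Sham; 478, 3, 4 and 2 for Gel against Sham; 186, 0, 1 and 1 for CuNZ@Gel against Gel; 499, 0, 2 and 2 for the segments; and 10, 0, 0 and 0 for the interaction. Where no other value shows it, the cause of a change was not tested.

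limma without trend and robust called, for CuNZ@Gel against Sham, 44 of all targets, 1 other complement gene and 0 acute phase genes. For Gel against Sham it called 176, 2 and 0, for CuNZ@Gel against Gel 75 of all targets and 0 acute phase genes, for the segments 0, 0 and 0, and for the interaction 0 targets. Thinned counts gave 105 of all targets and 0 acute phase genes for CuNZ@Gel against Sham, 224 of all targets, 2 other complement genes and 1 acute phase gene for Gel against Sham, 123 targets for CuNZ@Gel against Gel, and 44, 0 and 0 for the segments. With them the segment differences turned to 0.26 for C3, 0.0069 for C6, 0.39 for Cfb and 0.40 for Serping1. DESeq2 on the counts summed per specimen called 64 of all targets, 1 member, 1 other complement gene and 0 acute phase genes for CuNZ@Gel against Sham, 164 of all targets, 2 and 1 for Gel against Sham, and 57 targets and 0 acute phase genes for CuNZ@Gel against Gel. edgeR called 2 other complement and 0 acute phase genes for CuNZ@Gel against Sham, 3 other complement genes for CuNZ@Gel against Gel, and 1 and 1 for the segments, where Serping1 turned to 0.081. Quantile normalization gave 162 of all targets and 1 acute phase gene for CuNZ@Gel against Sham, 1 acute phase gene for Gel against Sham, 2 other complement and 0 acute phase genes for CuNZ@Gel against Gel, 147 of all targets, 1 other complement and 0 acute phase genes for the segments, 1 other complement gene for the interaction, and a segment difference of 0.069 for C3. A pseudocount of 5 gave 2 other complement genes for CuNZ@Gel against Gel and 3 targets for the interaction. Fitting only targets above background gave 1 acute phase gene for Gel against Sham, 4 for the segments and 1 target for the interaction, with fewer targets tested. Means of linear values gave 1 acute phase gene for Gel against Sham, 3 other complement genes for CuNZ@Gel against Gel, and 0.0192 for Serping1 between the segments. No filter moved no count by more than 1.5 times.

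Leaving out each specimen in turn gave 72 to 458 targets, 1 to 3 members, 1 to 6 other complement genes and 0 to 3 acute phase genes for CuNZ@Gel against Sham. It gave 271 to 752 targets and 0 to 2 acute phase genes for Gel against Sham, 95 to 293 targets, 1 to 2 other complement genes and 0 to 1 acute phase genes for CuNZ@Gel against Gel, 169 to 709 targets, 1 to 4 other complement genes and 0 to 4 acute phase genes for the segments, and 0 to 36 targets for the interaction. The lowest members count and the lowest count of all targets for CuNZ@Gel against Sham came without Sham specimen 1. The segment differences then ran from -0.29 to 0.0812 for C3, from -0.15 to 0.0614 for Cfb, from -0.11 to 0.45 for C4b and from -0.28 to 0.18 for Serping1. The remaining 2 alternatives were chosen after seeing the data. Without region 2 of Gel specimen 2, CuNZ@Gel against Sham gave 119 targets, 2 other complement and 0 acute phase genes, Gel against Sham 305 targets and 1 acute phase gene, CuNZ@Gel against Gel 2 other complement genes, and the segments 1 acute phase gene, with Cfb at 0.10 and Serping1 at 0.0164. Without region 2 of Sham specimen 2, 1 acute phase gene was called for CuNZ@Gel against Sham, 0 for Gel against Sham, 0 for CuNZ@Gel against Gel and 1 for the segments, and the interaction called 16 targets.

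Whether same-numbered specimens of different groups share more than a number is not in the labels. Their deviations correlated over 5554 targets at -0.032 (CuNZ@Gel with Sham), 0.0037 (Gel with Sham) and -0.025 (CuNZ@Gel with Gel). Such values cannot exclude a shared slide or run. With the specimen number as a replicate block, 257, 500 and 201 targets and 3, 3 and 0 members were called in those comparisons.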
